A study of Mus musculus with 8 samples.

Results

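The transcription factors and cofactors that define nephron progenitors were compared between mouse embryos with and without p53, in kidney at embryonic day 15.5. The set holds 9 genes, chosen by name: Six2, Cited1, Osr1, Eya1, Sall1, Pax2, Wt1, Meox1 and Uncx. They were found on the array through the RefSeq accession of each probe, and they are 9 of the 17305 genes that could be named there and 9 of the 12000 that were tested. Each array carried RNA of p53 null embryonic kidney in one dye and RNA of p53 wild-type embryonic kidney in the other, so each value is a log2 ratio of null over wild type measured within 1 array. Both genotypes were C57BL/6 embryos of the same age. The sources used here give neither the construction of the null allele nor the number of embryos or litters behind each RNA. The 8 arrays form 3 replicates, which the submitters call biological. Replicate 1 has 4 arrays (2 with null RNA in Cy5 and 2 dye swaps), and replicates 2 and 3 have 1 array of each dye orientation. Under the main settings the p-values below rest on the spread between these 3 replicates, which limma moderates over all probes. Tests that leave out a replicate, take the slide into account or use all 8 arrays singly rest on another spread.

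Nephron progenitors form a cap of mesenchyme around each tip of the branching ureteric bud. They renew themselves while part of the cap is induced by Wnt signals from the bud to condense, become epithelial and form a nephron, and the transcription factors of the cap hold the balance between both fates. Six2 represses the differentiation program, Cited1 marks the least committed cells, and Osr1, Eya1, Pax2, Wt1 and Sall1 act earlier as well, when the mesenchyme is set up and begins to attract the bud. Earlier work on kidney development linked p53 to Pax2.

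Replicate 1 was scanned on slide 1 and replicates 2 and 3 on slide 2, so slide and replicate 1 cannot be told apart. The names of the deposited scanner files give the wild-type side of replicates 2 and 3 the same number, while the labels do not say whether one wild-type RNA served both. Between these replicates the log2 brightness of wild-type RNA in the same dye differed with an SD of 0.136 and 0.142 over all tested probes. That was no more than between the repeat arrays of replicate 1, where the SD was 0.150 and 0.174 for wild type and 0.134 and 0.186 for null. The null RNAs of replicates 2 and 3 differed with an SD of 0.183 and 0.199. The null SD of 0.183 also lay within the range of the repeat arrays, so these distances cannot tell a shared RNA from separate ones. By the file names the 3 replicates may rest on 2 wild-type RNAs. A spread taken from replicates 2 and 3 alone may then leave out the spread between wild-type embryos. Between 46.9% and 62.8% of the 41174 probes were well above background per array and genotype. The brighter probe of Trp53, the targeted gene, had log2 ratios of −1.08, −0.47 and −0.45 in replicates 1, 2 and 3 and was below 0 on 8 of 8 arrays, while a dimmer probe had 0.01, 0.28 and 0.18. Which part of the gene is deleted is not given, so a probe outside it would check nothing.

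All 9 genes were expressed in both genotypes: the brightest probe of each was well above background in both dyes of all 8 arrays, as checked against the labelled tissue. In all, 12 probes stood for the 9 genes, and 11 passed the filter on dim probes. The one that did not was the second Uncx probe, which cleared background in wild-type RNA on 1 array and in null RNA on 0. The list had no common direction in null kidneys: 5 genes had a mean ratio below 0 and 4 above, with a median of −0.05, against 48.7% of all tested probes below 0 and a median of 0.01. With each array centred on its median in place of loess, which put the median of all tested probes at 0.12 and 26.7% of them below 0, the median of the 9 was 0.02. By the scanner program's own log ratio, which has no offset, 6 of the 9 were below 0 with a median of −0.24. Of all tested probes 49.6% were then below 0. In the main and the scanner setting the median is the value of Pax2, whose probe was the dimmest tested. None of the 9 passed the threshold (limma on the 3 replicate values, adjusted by Benjamini and Hochberg's method over 20865 probes), and the same held for every other probe (0 of 20865, 0%). At an unadjusted p under 0.05 stood 2 of the 9, Osr1 and Uncx, both lower in null, and 0 were higher. Over all tested probes 8.15% were lower at that level and 9.02% higher. Of the 9 genes 4 were lower in all 3 replicates (Six2, Osr1, Pax2 and Uncx) and 1, Eya1, was higher in all 3, beside 19.4% and 21% of all tested probes.

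**Figure D1:**
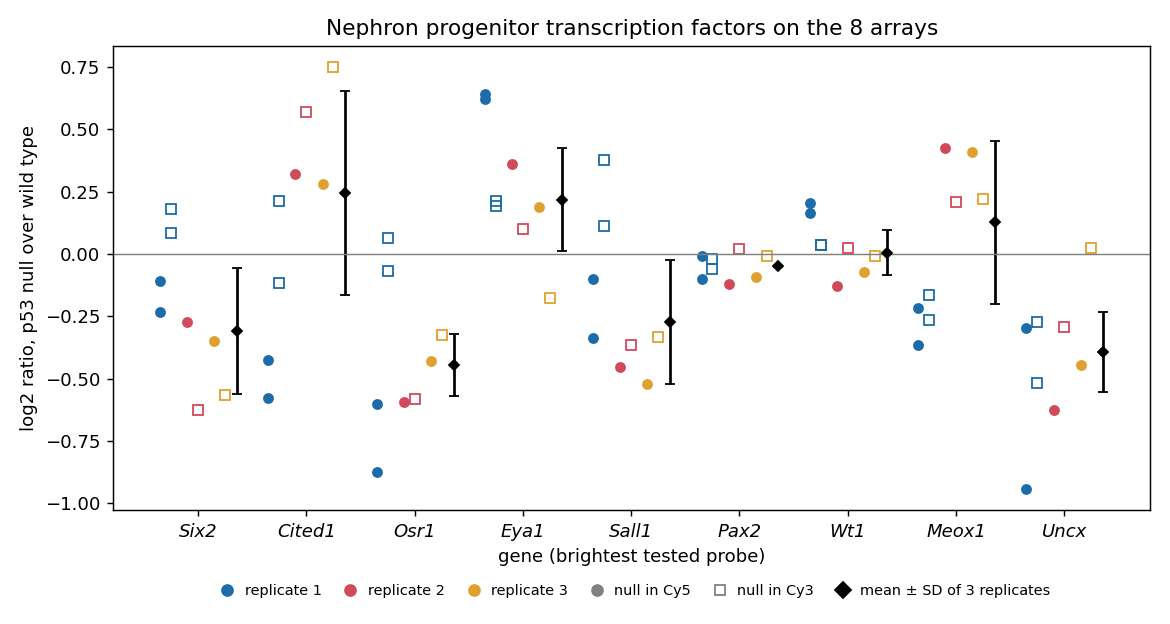
Log2 ratio of p53 null over wild type for each of the 9 genes (x axis) on each of the 8 arrays (points; colour gives the replicate, filled circles null RNA in Cy5, open squares null RNA in Cy3), with the mean and SD of the 3 replicates (black). Osr1 and Uncx lie below 0 on 7 of 8 arrays each. Meox1 lies on opposite sides of 0 in replicate 1 and in replicates 2 and 3, as does Cited1 except for a dye swap of replicate 1 at 0.21.

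Osr1 and Uncx, the members with the smallest p under the main settings, were lower in null kidneys in each replicate. With median centring neither had an unadjusted p under 0.05 (limma, 0.227 and 0.308). Eya1, higher in null, was then the only member that did (0.0185). Osr1 encodes a zinc finger factor of the intermediate mesoderm, from which the kidney arises, and keeps progenitors from differentiating too early. Its ratios in replicate 1 were −0.60 and −0.88 with null RNA in Cy5 and 0.07 and −0.07 in the dye swaps. In replicate 2 they were −0.60 and −0.58, and in replicate 3 −0.43 and −0.33, the Cy5 array first. Osr1 was thus lower on 7 of 8 arrays, and in replicate 1 the difference was present in one dye orientation and near 0 in the other. The replicate values were −0.37, −0.59 and −0.38, a mean of −0.45 ± 0.12 (SD, n = 3), or 0.734 of the wild-type level (limma, unadjusted p = 0.0051, adjusted p = 0.279). A second, dimmer Osr1 probe was lower in all replicates too, at −0.18, −0.40 and −0.28 (mean −0.29 ± 0.11).

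Uncx encodes a paired-type homeobox factor best known from the vertebral column and also found in the cap mesenchyme. Its ratios in replicate 1 were −0.30 and −0.94 with null RNA in Cy5 and −0.27 and −0.52 in the dye swaps. Replicate 2 gave −0.63 and −0.29 and replicate 3 gave −0.44 and 0.02, the Cy5 array first. All arrays but the dye swap of replicate 3 were below 0, and in replicate 1 both orientations were. By replicate Uncx had −0.51, −0.46 and −0.21, a mean of −0.39 ± 0.16 (SD, n = 3), or 0.762 of wild type (limma, unadjusted p = 0.012, adjusted p = 0.279). Neither Osr1 nor Uncx differed between the slides beyond the spread between replicates 2 and 3 (adjusted p = 0.496 and 0.287, limma on the difference between slides), a test in which 44.4% of all probes passed.

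Six2 and Sall1 had almost the same profile: near 0 in replicate 1 and lower in null on slide 2. Six2, the homeobox factor that keeps the cap undifferentiated, had −0.11 and −0.23 in replicate 1 with null RNA in Cy5, and 0.08 and 0.18 in the dye swaps. Replicate 2 gave −0.27 and −0.63, and replicate 3 gave −0.35 and −0.57. The arrays of replicate 1 straddled 0 by dye, and all 4 arrays of slide 2 were below 0. By replicate Six2 had −0.02, −0.45 and −0.46, a mean of −0.31 ± 0.25 (SD, n = 3; limma, adjusted p = 0.303).

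Sall1, a zinc finger factor needed for the mesenchyme to attract the ureteric bud, had −0.10 and −0.34 in replicate 1 with null RNA in Cy5 and 0.11 and 0.38 in the dye swaps. On slide 2 its arrays lay between −0.52 and −0.33. The replicate values were 0.01, −0.41 and −0.43, a mean of −0.27 ± 0.25 (SD, n = 3; limma, adjusted p = 0.325). The difference between slide 1 and slide 2 was 0.43 ± 0.12 (SE) for Six2 and 0.43 ± 0.12 (SE) for Sall1 and passed for both (limma, adjusted p = 0.0040 and 0.0043). The spread was taken from replicates 2 and 3 alone, and 44.4% of all probes passed this test. In log2 brightness wild-type Six2 was 9.555, 10.08 and 9.998 in replicates 1, 2 and 3 (SD 0.28), against 9.54, 9.63 and 9.54 in null (SD 0.05). Brightness in the same dye also differed between the slides over all tested probes, with SDs from 0.76 to 0.854. Which genotype moved in Six2 can thus not be told from these levels. Sall1 was brighter on slide 2 in both genotypes. Wild type had 8.097, 9.27 and 9.226 in replicates 1, 2 and 3, and null 8.11, 8.861 and 8.8. In RNA of a kidney, fewer cells that express a gene and less RNA per cell cannot be told apart.

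Cited1 and Meox1 had opposite signs on the 2 slides. Cited1 encodes a cofactor that binds no DNA itself and marks the most naive progenitors. Its ratios in replicate 1 were −0.42 and −0.58 with null RNA in Cy5 and −0.12 and 0.21 in the dye swaps. Slide 2 gave 0.32 and 0.57 in replicate 2 and 0.28 and 0.75 in replicate 3. The arrays of slide 2 were all above 0 and above every array of replicate 1. The replicate values were −0.23, 0.45 and 0.51, a mean of 0.24 ± 0.41 (SD, n = 3; limma, adjusted p = 0.482). Cited1 is X-linked, and transcripts of the sex chromosomes differed between the RNAs. Xist was well above background in wild type on all 8 arrays, but in null RNA only on the 2 arrays of replicate 2. Eif2s3y, on the Y chromosome, cleared background in null RNA on the 4 arrays of replicate 1 and the 2 of replicate 3. It did so on no array of replicate 2 and never in wild type. In replicates 1 and 3, sex and genotype thus cannot be told apart, for any gene. Whether the sex of the embryos bears on the Cited1 ratio, or on that of any other gene, was not tested.

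Meox1, a homeobox gene of the somites whose transcript also marks the cap, had −0.22 and −0.36 in replicate 1 with null RNA in Cy5 and −0.16 and −0.27 in the dye swaps. On slide 2 its arrays ran from 0.21 to 0.42. The replicate values were −0.25, 0.32 and 0.31 (mean 0.13 ± 0.33, SD, n = 3; limma, adjusted p = 0.657), and the arrays of the slides did not overlap. A second Meox1 probe gave −0.22, 0.20 and 0.29, the same signs. The difference between slides was −0.71 ± 0.12 (SE) for Cited1 and −0.57 ± 0.12 (SE) for Meox1 (limma, adjusted p = 2.1e-05 and 0.00030). Here too the spread came from replicates 2 and 3 alone, which may share a wild-type RNA, and 44.4% of all probes passed this test.

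**Figure D2:**
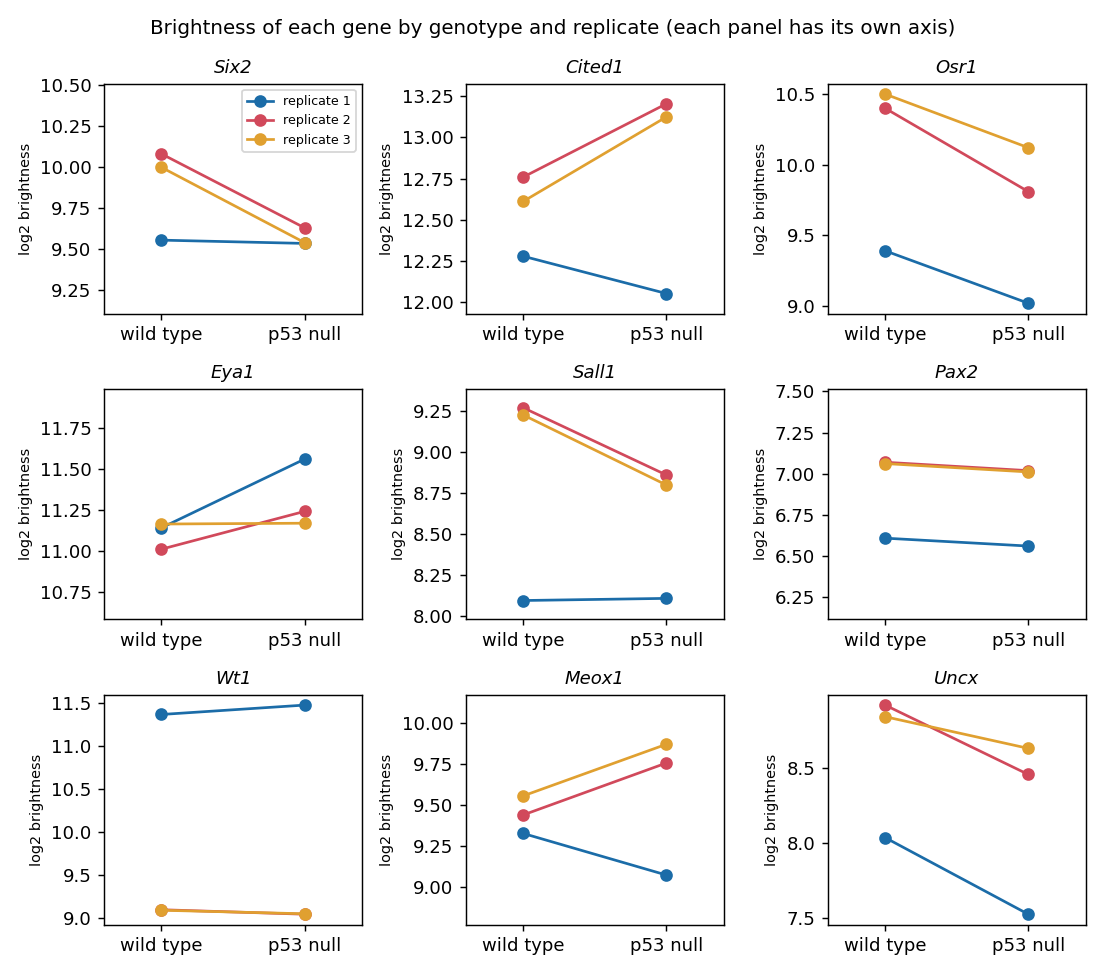
Log2 brightness of the tested probe of each gene (y axis, its own range in each panel) in wild-type and p53 null RNA, with lines joining the same replicate. Lines of replicates 2 and 3 run parallel in most panels (they coincide for Wt1), and replicate 1 runs the other way for Cited1 and Meox1 and flat for Six2 and Sall1.

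Eya1 was the 1 member of the 9 with a ratio above 0 in every replicate. It encodes a phosphatase that works as a transcriptional coactivator in the cap. Its ratios in replicate 1 were 0.64 and 0.62 with null RNA in Cy5 and 0.21 and 0.19 in the dye swaps. Replicate 2 gave 0.36 and 0.10, and replicate 3 gave 0.19 and −0.18. Arrays with null RNA in Cy5 were higher than their dye swaps in all replicates, and 7 of 8 arrays were above 0. By replicate Eya1 had 0.42, 0.23 and 0.01, a mean of 0.22 ± 0.21 (SD, n = 3; limma, adjusted p = 0.352).

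Pax2 and Wt1 had ratios close to 0 in all replicates. Pax2, a paired-box factor of both the cap and the ureteric bud, had replicate values of −0.05, −0.05 and −0.05 over a probe spotted 10 times, with a 95% interval of the mean from −0.23 to 0.13 on limma's spread. Its arrays lay between −0.12 and 0.02, 7 of 8 of them below 0. The Pax2 probe was the dimmest of the tested ones of the set, with a mean log2 brightness of 6.77, and the offset of 50 added to each signal pulls ratios of such probes toward 0. With an offset of 10 the Pax2 mean was −0.10, and by the scanner program's own log ratio, which has no offset, it was −0.24 (limma, adjusted p = 0.347). Wt1, a zinc finger factor present at a low level in the cap and a high level in podocytes, had 0.11, −0.05 and −0.04, a mean of 0.01 ± 0.09 with an interval from −0.20 to 0.21, also over 10 spots. Its arrays lay between −0.13 and 0.21, with the 4 of replicate 1 above 0 and 3 of the 4 on slide 2 below it. The brightness of Wt1 differed far more between the slides than between genotypes. The log2 brightness of Wt1 in wild type was 11.37 in replicate 1 against 9.10 and 9.09 in replicates 2 and 3, and in null it was 11.48 against 9.05 and 9.05. An adjusted p above the threshold (limma, 0.703 for Pax2 and 0.973 for Wt1) does not show that the levels were alike, and the intervals give the range of change that remains possible on this scale.

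Promoter sequence was available for 5 of the 9 genes (RefSeq, GRCm38.p6), in 11 windows of 300 bases around a start of transcription. Shown are those of Six2 and Sall1, the pair with nearly the same ratios, and of Uncx, lower in each replicate. Six2 and Uncx have 1 window each, and of the 3 of Sall1 the one farthest upstream is shown. Six2 lies at chr17:85688205-85688504 on the minus strand, Sall1 at chr8:89044113-89044412 on the minus strand and Uncx at chr5:139543648-139543947 on the plus strand. All are written 5′ to 3′ along the gene, with capitals for the GC box (GGGCGG) and the CCAAT box (CCAAT) on either strand, which do not overlap here.
Six2: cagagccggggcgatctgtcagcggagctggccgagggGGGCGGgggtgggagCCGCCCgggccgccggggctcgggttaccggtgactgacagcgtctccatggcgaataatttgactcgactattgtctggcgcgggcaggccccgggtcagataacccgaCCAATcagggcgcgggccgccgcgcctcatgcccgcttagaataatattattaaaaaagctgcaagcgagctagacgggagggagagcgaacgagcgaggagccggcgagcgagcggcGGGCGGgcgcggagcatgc
Sall1: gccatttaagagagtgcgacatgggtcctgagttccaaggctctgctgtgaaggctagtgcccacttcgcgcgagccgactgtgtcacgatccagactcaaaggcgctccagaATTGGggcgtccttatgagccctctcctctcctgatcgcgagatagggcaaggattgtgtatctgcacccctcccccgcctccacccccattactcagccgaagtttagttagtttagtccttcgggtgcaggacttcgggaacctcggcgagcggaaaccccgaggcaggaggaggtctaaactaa
Uncx: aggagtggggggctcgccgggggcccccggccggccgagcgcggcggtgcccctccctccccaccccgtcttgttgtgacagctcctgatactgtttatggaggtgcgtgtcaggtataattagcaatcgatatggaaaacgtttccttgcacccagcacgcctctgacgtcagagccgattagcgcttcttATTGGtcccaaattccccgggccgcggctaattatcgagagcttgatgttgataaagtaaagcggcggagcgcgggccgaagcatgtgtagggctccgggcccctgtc
The Six2 window held 3 GC boxes and 1 CCAAT box, and those shown of Sall1 and Uncx held 1 CCAAT box each. The other windows of Sall1 held 1 and 4 GC boxes, no CCAAT box, and 79.7% and 70% G and C. Over all 32851 windows of this length 35.7% held a GC box and 37.4% a CCAAT box. The TATA motif TATAAA, present in 13.6% of all windows, was in none of these 3. A match to the consensus half-site of p53, searched on both strands, was in 0 of the 11 windows and in 8.36% of all windows, which says only that these letters are not there. The G and C content was 67.3% for Six2, 57.3% for the Sall1 window shown and 60.7% for Uncx, against a median of 52.7% over all windows.

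**Figure D3:**
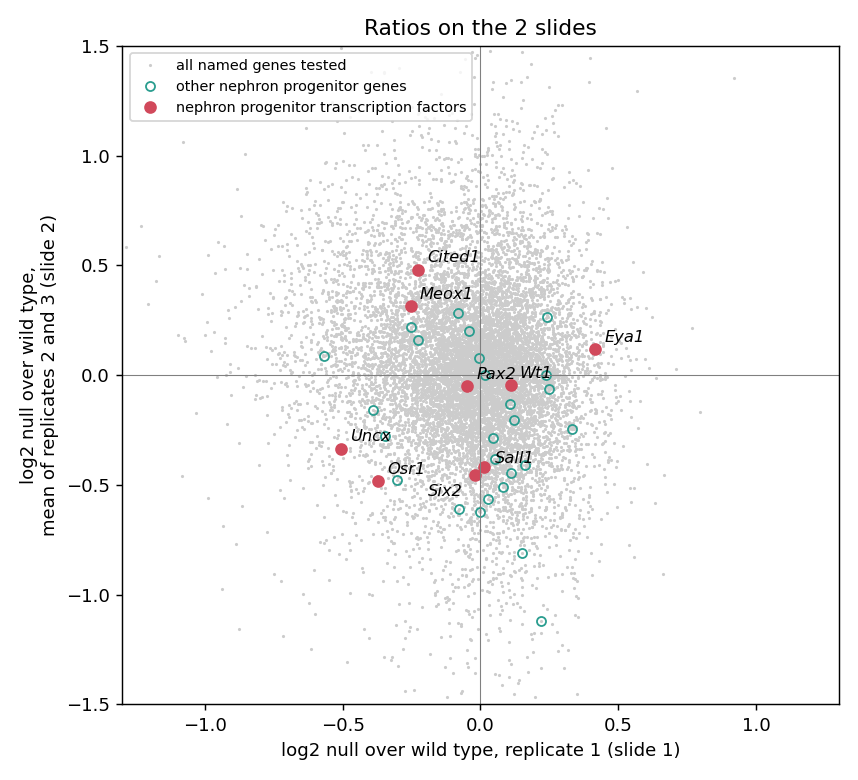
Log2 ratio of null over wild type in replicate 1 on slide 1 (x axis) against the mean of replicates 2 and 3 on slide 2 (y axis) for the 12000 named genes tested (grey; 96 lie outside the axes), other nephron progenitor genes (open circles) and the 9 factors (red, named). Osr1 and Uncx lie below 0 on both axes, Six2 and Sall1 below 0 on slide 2 at a value near 0 in replicate 1, and Cited1 and Meox1 above 0 on slide 2 and below it in replicate 1.

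Without replicate 1, that is on slide 2 alone, 6 of the 9 genes passed (limma, adjusted over all probes): Six2 (−0.45, adjusted p = 2.2e-06), Osr1 (−0.48, 1.5e-06), Sall1 (−0.42, 8.0e-06) and Uncx (−0.34, 0.00028) were lower in null, and Cited1 (0.48, 9.7e-07) and Meox1 (0.32, 0.00030) higher. On that slide 25.2% of all probes passed as lower and 30.8% as higher. These p-values rest on replicates that may share a wild-type RNA. With all replicates and slide as a fixed block, where the spread again comes from slide 2, 5 of the 9 passed, Six2, Osr1, Sall1 and Uncx as lower and Eya1 as higher, beside 40.8% of all probes. With all 8 arrays and the replicate as a random block 0 of the 9 passed, beside 5.54% of 20450 probes, and Osr1, Eya1 and Uncx had an unadjusted p under 0.05 (limma). The same 2 replicates differed from replicate 1 in the size of the ratios of glycolytic genes. All 13 measured were lower in null in both replicates of slide 2, beside 38.5% of all tested probes, and 10 were lower in replicate 1. The list medians were −0.37, −1.87 and −1.67 in replicates 1, 2 and 3. Summed brightness was 138074 to 155036 in null and 181262 to 493666 in wild type. The part of glycolytic genes in the slide 2 values of the progenitor factors was not tested.

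Other genes of the progenitor program were taken from a list of 28, of which 26 were tested. With limma 0 passed over all probes, and at an unadjusted p under 0.05 stood 3 lower and 1 higher in null, beside 8.15% and 9.02% of all probes. Their median was −0.15, with 17 of 26 below 0. It was 0.02 with 12 of 26 below 0 under median centring, and −0.27 with 19 of 26 by the scanner program's log ratio. By replicate the median under the main settings ran 0.04, −0.22 and −0.19. On slide 2, 16 of 26 (61.5%) were lower in both replicates, as were 6 of the 9 factors (66.7%), against 38.5% of all tested probes. These 6 include Pax2 (−0.05 and −0.05) and Wt1 (−0.05 and −0.04), both close to 0. The 2 replicates may share a wild-type RNA, so being lower in both may not be an independent repeat. Without replicate 1, 14 of the 26 passed as lower and 4 as higher, beside 25.2% and 30.8% of all probes. Capn6 had −0.30, −0.49 and −0.47, and Phf19, a Polycomb-associated protein, −0.35, −0.38 and −0.17. The 1 higher gene was Rspo1, a secreted enhancer of Wnt signals, at 0.24, 0.34 and 0.19. Bmp7, the growth factor that maintains the cap, had −0.08, −0.58 and −0.64. A second, somewhat dimmer Bmp7 probe, spotted 10 times, had −0.23, −0.55 and −0.44. Gdnf, the ligand by which the cap attracts the bud and a target of Eya1, Pax2 and Sall1, had −0.23, 0.11 and 0.21. Gdnf thus had the signs of Cited1 and Meox1.

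Among genes switched on as progenitors leave the cap, 14 of 19 tested had a mean below 0 (median −0.14; 9 of 19 and 0.01 with median centring), with 0 past the threshold and 5 lower at an unadjusted p under 0.05 (limma; 8.15% of all probes). Wnt4, which drives the change to epithelium and which Six2 holds back, had −0.57, −0.27 and −0.08. The cadherin gene Cdh6 had −0.46, −0.78 and −0.57. Jag1, which encodes a ligand of Notch, had −0.10, −0.46 and −0.54. The median of the list was −0.19, −0.13 and −0.08 in replicates 1, 2 and 3. On slide 2, where Six2 was lower, 10 of these 19 genes were lower in both replicates, beside 38.5% of all tested probes, and 6 were higher in both, beside 9456 of 20865 probes.

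Cells next to the cap, which express some of the 9 genes, were described by further lists. Stromal genes had 16 of 16 means below 0 (median −0.28; 11 of 16 and −0.07 with median centring) with medians of −0.26, −0.29 and −0.31 in the replicates, 0 past the threshold and 7 lower at an unadjusted p under 0.05 (limma; 8.15% of all probes). Their summed brightness was 146562 to 152814 in null and 179242 to 194726 in wild type. Fbln2, Col1a1 and Lum had means of −0.39, −0.49 and −0.54, and the dimmer probes of Col1a1 had −0.50 and −0.06. Osr1 is also expressed in renal stroma, and the part of stroma in its ratio was not tested. Podocyte genes, the other main site of Wt1, had medians of −0.16, 0.12 and 0.20 over 11 tested, and Clic5, Plce1, Cd2ap and Ptpro had means of 0.33, −0.16, −0.10 and −0.09. Ureteric bud genes, which share Pax2 with the cap, had medians of −0.11, −0.04 and 0.05 over 17 tested, and Gfra1, Krt19, Sox8 and Krt18 had means of −0.30, −0.44, 0.25 and −0.27. For tissues near the kidney in which Eya1, Meox1 or Wt1 is active, 7 of 9 skeletal muscle markers were tested (median 0.25; Myod1 and Ckm did not pass the filter) and 3 of 10 gonad markers (median −0.20; Amh, Foxl2, Nr5a1, Star, Nr0b1, Dazl and Ddx4 did not pass). At an unadjusted p under 0.05 stood 4 of the 7 muscle markers, all higher (limma, 0 past the threshold; 9.02% of all probes). Muscle markers had medians of 0.09, 0.36 and 0.17 in the replicates, with a summed brightness of 1089 to 1792 in null and 1028 to 1410 in wild type. Their part in the Meox1 and Eya1 ratios was not tested.

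**Figure D4:**
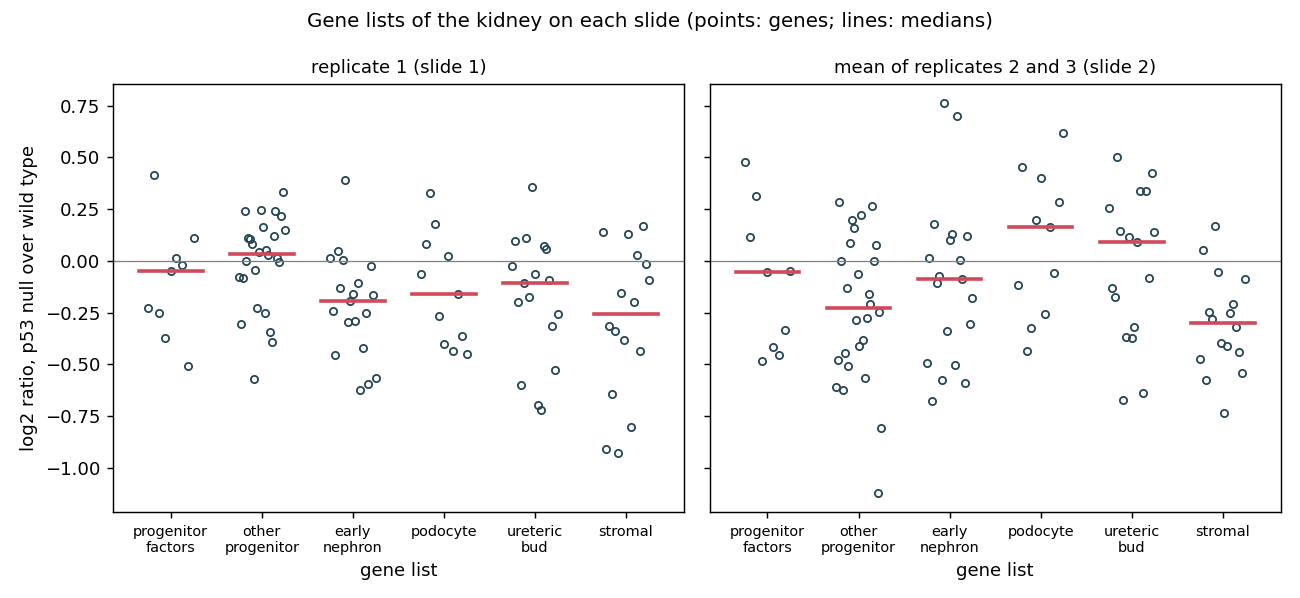
Log2 ratio of null over wild type of each tested gene (open circles) and list median (red line) in replicate 1 on slide 1 (left) and as the mean of replicates 2 and 3 on slide 2 (right). The medians of stromal genes lie below 0 on both slides, that of other progenitor genes lies near 0 on slide 1 and below 0 on slide 2, and the 9 factors spread to both sides of 0 on each slide.

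The genes whose ratios over the 8 arrays lay closest to Six2, by root mean square difference, were H2-T23 (0.078), Gstt1 (0.081), Lin7a (0.082), Atp2c2 (0.086) and Dcdc2a (0.089), where the median over 11991 genes was 0.433. Closest to Osr1 were Acly (0.091), Tpr (0.106), Npepps (0.115), Bach1 (0.129) and Fdft1 (0.132), with a median of 0.568. Acly and Fdft1 encode enzymes of lipid and sterol synthesis. The 8 arrays are repeats of 3 replicates on 2 slides, so these distances describe few independent points.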

How the data were processed

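RNA of p53 null and wild-type embryonic kidneys was hybridised on 8 two-colour Agilent arrays after direct dye labelling of cDNA, per the labels' protocols. The deposited scanner files hold spot and background brightness as intensity and a log10 ratio of red over green, written by Feature Extraction, of which the file headers give version 10.5.1.1 and the submitters' processing notes 6.1; the array design is built on mm9. The value table deposited by the authors holds the same log10 ratio with null as numerator throughout (it equals the scanner ratio within 4.94e-06; column medians from −0.0024 to 0.011), with part of the spots empty by a rule not given in the sources used here.

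Median signals were background-corrected (normexp, offset 50) and loess-normalized in limma 3.58.1 (R 4.3.3). The 1639 control spots had weight 0 and were then dropped, outlier spots were set to missing, and spots of a probe were averaged. Arrays were turned to log2 null over wild type; dye orientations, which are technical swaps of one replicate per the labels, were averaged within a replicate. Probes were kept where a genotype was well above background on 50% of the arrays of each replicate; 20865 of 41174 were tested with limma against 0 (4.22 degrees of freedom in all, threshold 0.05). A sign permutation over 3 replicates cannot go below p = 0.25. A gene is its brightest tested probe; 25097 probes were named through RefSeq accessions (GRCm38.p6). Levels were taken after Aquantile normalization. Precision is limited by the number of replicates and, for dim probes, by signal over background.

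The 9 genes, the lists and the rule for named genes (all members, the 4 genes of each kidney list with the smallest p, known partners or targets such as Gdnf and Wnt4, and the 5 nearest to Six2 and to Osr1) were chosen with earlier results of these data known; some genes that the rule names are not reported here. Alternatives covered replicates, slide, dye, background, normalization, the authors' ratios, filter, flags and probe rule. The test between slides and the comparison of brightness between replicates were added after seeing the data.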

Additional observations from a re-analysis of the deposited data

How the results depend on the processing

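Under the main settings 0 probes, 0 of the 9 factors and 0 of the 26 other progenitor genes passed (limma; 1701 probes lower and 1882 higher had an unadjusted p under 0.05). Leaving out 1 replicate gave 0 to 11689 probes, 0 to 6 of the factors and 0 to 18 of the other genes; all calls came without replicate 1. With slide as a fixed block 8521 probes (40.8%), 5 of the factors (Six2, Osr1, Eya1, Sall1, Uncx) and 13 of the other genes passed, again with the spread of replicates 2 and 3 alone, while 1 value per slide gave 0 of each. All 8 arrays with a replicate block (correlation 0.72) gave 1132 probes (5.54%), 0 of the factors and 1 other gene. The dye, background, normalization, filter and flag alternatives and both sets of the authors' ratios gave 0 of each, and the mean of a gene's probes gave 0 of the factors and 0 of the other genes.

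Osr1, Uncx, Six2, Sall1, Eya1, Cited1 and Meox1 kept their sign in all alternatives. No alternative used replicate 1 alone, where Cited1 had −0.23, Meox1 −0.25 and Sall1 0.01, opposite to their means. Some kept signs were near 0, as for Cited1 with null in Cy5 only (0.0331) and Meox1 with 1 value per slide (0.0314). Median centring in place of loess raised the mean of each factor, to −0.23 for Osr1 and −0.23 for Uncx, and turned Pax2 to 0.0171; the median of all tested probes was then 0.12. Wt1 turned to −0.0060 with null in Cy5 only and with no background correction, −0.014 with offset 10, −0.013 with the scanner program's log ratio and −0.012 with the deposited value table, and ran from −0.0467 to 0.0341 with a replicate left out. The cause was not tested. By dye Osr1 had −0.59 with null in Cy5 only and −0.30 with null in Cy3 only, and Uncx −0.56 and −0.22. With null in Cy3 only neither had an unadjusted p under 0.05 (limma, 0.0809 and 0.121), and only Cited1 did (0.0378). Without replicate 2 no factor had an unadjusted p under 0.05, while without replicate 3 Osr1 and Uncx did. The median of the 9 ran from −0.24 (scanner program's log ratio) to 0.02. By that log ratio the median was −0.15 for early nephron genes and −0.30 for stromal genes, with 14 of 19 and 16 of 16 below 0. Signal over background limits Pax2, and the second Uncx probe gave no tested value.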

Other observations

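Several progenitor genes outside the factors were below 0 on slide 2, as Six2 and Sall1 were, and at or above 0 in replicate 1; seeing these values led to their choice. The matrix proteoglycan gene Spock2 had 0.22, −1.09 and −1.15 in replicates 1, 2 and 3, but its second, dimmer probe had −0.35, −0.17 and 0.17, so its probes disagree. Traf1, a signalling adaptor gene, had 0.15, −0.80 and −0.82. The brightest probe of the adhesion gene Ncam1 had 0.03, −0.54 and −0.59, the next brightest −0.08, −0.87 and −0.74, and 4 dim probes had means from −0.27 to 0.05. The 2 dim probes with the lowest means had −0.39, −0.28 and −0.14, and −0.46, −0.16 and −0.17. Both were lowest in replicate 1, so the probes of Ncam1 disagree too. Dpf3, a subunit gene of chromatin remodelers, had 0.00, −0.60 and −0.64, and the growth factor gene Fgf9 0.08, −0.54 and −0.48. Itga8, the integrin by which the cap receives signals from the bud, had 0.16, −0.44 and −0.39. None passed with limma on the 3 replicates (adjusted p = 0.298 to 0.459 for these 6).

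The opposite profile, lower in replicate 1 and higher on slide 2 as for Cited1 and Meox1, was seen in Lef1, a factor of Wnt signalling (−0.63, 0.59 and 0.81), in Etv4, a target of Ret signalling (−0.60, 0.34 and 0.67), and in Tcf21, a factor of stroma and podocytes (−0.45, 0.55 and 0.68). Whether these genes differ between slides for the same reason was not tested. Macrophage markers had 7 of 8 means above 0, with medians of 0.09, 0.60 and 0.62 and a summed brightness of 2508 to 3981 in null and 2356 to 2456 in wild type. Endothelial markers had medians of −0.01, 0.37 and 0.49. Of 8 liver markers 4 were tested, all with means above 0 (medians −0.03, 0.97 and 0.59), while Alb, Apoa1 and Ttr did not pass the filter.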
